A study of Mus musculus with 8 samples.

Results

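The 10 stellate cell and fibrosis genes Col1a1, Col1a2, Col3a1, Timp1, Tgfb1, Pdgfrb, Lrat, Reln, Dcn and Acta2 were followed in the liver transcriptome of fructose-fed mice with and without hepatocyte Rbfox2. They were chosen by name, as 10 of the 46078 genes in the count table, and each symbol matched 1 Ensembl gene. Col1a1, Col1a2 and Col3a1 encode chains of the fibrillar collagens, Dcn encodes a small proteoglycan that binds collagen, and Timp1 encodes an inhibitor of matrix metalloproteinases. Tgfb1 encodes a cytokine that induces matrix production, Pdgfrb encodes a receptor for platelet-derived growth factor (PDGF), and Acta2 encodes smooth muscle α-actin. Lrat, the enzyme that esterifies retinol for storage, and Reln, the secreted glycoprotein reelin, mark hepatic stellate cells.

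RNA-seq was performed on livers of 5 WT mice and 3 Rbfox2 KO mice, which had drunk water with fructose at 30% (w/v) for 22 weeks and were fasted before the livers were taken. Both groups carried loxP sites on both Rbfox2 alleles (Rbfox2 LoxP/LoxP), and the Rbfox2 KO mice also carried Cre recombinase under the albumin promoter (Alb-cre), which is active in hepatocytes. The mice were 8 weeks old when the diet began. The deletion was therefore directed at hepatocytes and not at stellate cells, endothelial cells or macrophages, and the members, which are mainly products of non-parenchymal cells, were measured in RNA of whole tissue. No chow-fed group and no sorted cell fraction entered the comparison.

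Hepatic stellate cells lie between hepatocytes and the sinusoidal endothelium and store vitamin A as retinyl esters. In an injured liver they can lose these stores, become contractile myofibroblasts that express smooth muscle α-actin, and secrete fibrillar collagen, with TGF-β and PDGF among the best known signals for this change. Lrat, Reln and Dcn are used as markers of the resident cells, and Col1a1, Timp1 and Acta2 as markers of the activated state.

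The promoters of 4 genes are shown because these genes fell into different patterns across the 8 livers: Col1a2, Col3a1 and Timp1 shared a peak in 1 sample, and Acta2 did not. Sequences were those of RefSeq (GRCm38.p6), and each window ran from 250 bases before to 50 bases after the RefSeq start. Windows of 7 of the 10 members were used. Pdgfrb was set aside before the search, and Col1a1 and Dcn had no entry. They are written 5′ to 3′ along the gene, with capitals for matches, on either strand, to the TATA box TATAAA, the inverted or direct CCAAT box, the GC box GGGCGG and CAGAC, a Smad-binding element.
Col1a2 (chr6:4505368-4505667, plus strand): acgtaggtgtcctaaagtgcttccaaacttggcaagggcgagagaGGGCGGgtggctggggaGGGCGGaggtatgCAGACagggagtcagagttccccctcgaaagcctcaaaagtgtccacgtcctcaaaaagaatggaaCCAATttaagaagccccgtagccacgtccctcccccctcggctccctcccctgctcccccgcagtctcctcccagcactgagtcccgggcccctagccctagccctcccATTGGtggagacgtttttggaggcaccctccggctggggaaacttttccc
Col3a1 (chr1:45311288-45311587, plus strand): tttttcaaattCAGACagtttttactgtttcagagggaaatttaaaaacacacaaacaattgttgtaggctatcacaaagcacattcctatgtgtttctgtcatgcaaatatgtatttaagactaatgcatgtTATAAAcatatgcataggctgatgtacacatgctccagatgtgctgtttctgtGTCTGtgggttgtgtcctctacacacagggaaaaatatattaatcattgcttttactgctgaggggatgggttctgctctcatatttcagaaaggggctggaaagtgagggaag
Timp1 (chrX:20869916-20870215, plus strand): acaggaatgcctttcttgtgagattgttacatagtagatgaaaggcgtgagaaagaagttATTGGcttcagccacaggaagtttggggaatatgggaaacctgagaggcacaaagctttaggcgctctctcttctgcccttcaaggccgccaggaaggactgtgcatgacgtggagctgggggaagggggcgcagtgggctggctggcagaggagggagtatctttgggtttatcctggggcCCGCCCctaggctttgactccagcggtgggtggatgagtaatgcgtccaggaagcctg
Acta2 (chr19:34255324-34255623, minus strand): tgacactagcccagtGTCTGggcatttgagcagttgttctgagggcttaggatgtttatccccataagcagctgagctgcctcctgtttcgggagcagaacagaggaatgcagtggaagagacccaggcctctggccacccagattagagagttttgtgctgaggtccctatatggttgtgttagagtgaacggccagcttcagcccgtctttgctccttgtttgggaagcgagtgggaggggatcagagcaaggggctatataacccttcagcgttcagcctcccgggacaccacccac
The Col1a2 window held 2 CCAAT boxes, 2 GC boxes and 1 CAGAC. That of Col3a1 held 2 CAGAC and 1 match to the letters TATAAA, which began at -117 from the RefSeq start. The Timp1 window held 1 CCAAT box and 1 GC box, and that of Acta2 held 1 CAGAC. Matches were counted at any place in a window and to the exact letters, so tatataa in the Acta2 window was not counted. Among all 32851 RefSeq windows of this length, 49.6% held CAGAC, 37.4% a CCAAT box, 35.7% a GC box and 13.6% TATAAA. The AP-1 motif TGANTCA was present in 7.81% of all windows, and the CArG box of serum response factor in 1.63%. The CArG box was searched as CC, 6 bases of A or T, and GG. Neither was in any of the 7 windows, which says only that these exact letters are not there. Sites that differ in 1 base were not counted, such as ccctatatgg in the Acta2 window and tgagtaa in the Timp1 window. The absence of binding sites for these factors is therefore not shown. The windows of Tgfb1 and Reln had 6 GC boxes each and a GC content of 77% and 80.7%, against a median of 52.7% over all windows, and that of Col3a1 had 37.7%. Counted by exact letters, no motif of the 6 was in all 3 windows of Col1a2, Col3a1 and Timp1. The Tgfb1 window held GC boxes only. Whether any of these motifs bears on the levels was not tested.

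Total counts ran from 24829693 to 37823155 per sample, and levels are CPM, counts scaled to a common library size, after trimmed mean of M-values (TMM) scaling, which corrects each library total for composition. Rbfox2, the deleted gene, was at 6.83 to 12.4 CPM in Rbfox2 KO, below the WT range of 13.9 to 23.1 CPM (log2 fold change -1.03 ± 0.21 SE, edgeR adjusted p = 0.328, and -0.85 without Rbfox2 KO 1). The gene was not called by edgeR, and DESeq2 called it (adjusted p = 0.00190), while its exact permutation p of 0.0179 was the smallest that 56 splits can give. The stellate markers Lrat, Reln, Dcn, Hand2, Ecm1 and Colec10 were detected in all 8 livers, and 23 of 24 listed stellate markers passed the filter on low counts. One sample stood apart: Rbfox2 KO 1 had pancreatic acinar transcripts (12 genes) at a summed 463 CPM against 4.78 to 17.1 CPM in the other 7 samples. Its red blood cell transcripts (7 genes) summed to 2106 CPM against 741 to 1458 CPM, and its hepatocyte markers (10 genes) to 70148 CPM against 76767 to 84773 CPM. Skeletal muscle transcripts (12 genes) summed to 269 CPM in Rbfox2 KO 1, 325 CPM in WT 4 and 416 CPM in WT 5, and to 1.45 to 58.0 CPM in the other 5. For this reason the fold changes of the members and the main list medians are given with and without Rbfox2 KO 1, and what these transcripts contributed to the members' levels was not tested.

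By edgeR, 0 of the 9 members that passed the filter differed between genotypes at an adjusted p of 0.05, with 0.0% of all 14654 tested genes called (0 genes), and 0 of 9 had an unadjusted p under 0.05, against 694 of all genes (4.74%). The edgeR adjusted p was 1.0 for each of the 9. DESeq2 and limma-voom also called 0 members. In none of the 10 members were the groups apart, against 3.71% of all tested genes. The log2 fold change was above 0 for 7 of 9 members, against 50.2% of all genes, with a median of 0.36 against 0.00 for all genes. Without Rbfox2 KO 1 it was above 0 for 2 of 9, with a median of -0.07. Rbfox2 KO 1 was the highest of the 8 samples for 6 of the 9 members, against 17.7% of all genes, and was more than 2 times the next highest sample for 3, against 1.11% of all genes. The levels in Rbfox2 KO 2 and Rbfox2 KO 3 both lay within the WT range for 6 of 9 members, against 50.9% of all genes. In bulk tissue, a change in the number of cells of a type and a change in RNA per cell cannot be told apart.

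**Figure D1:**
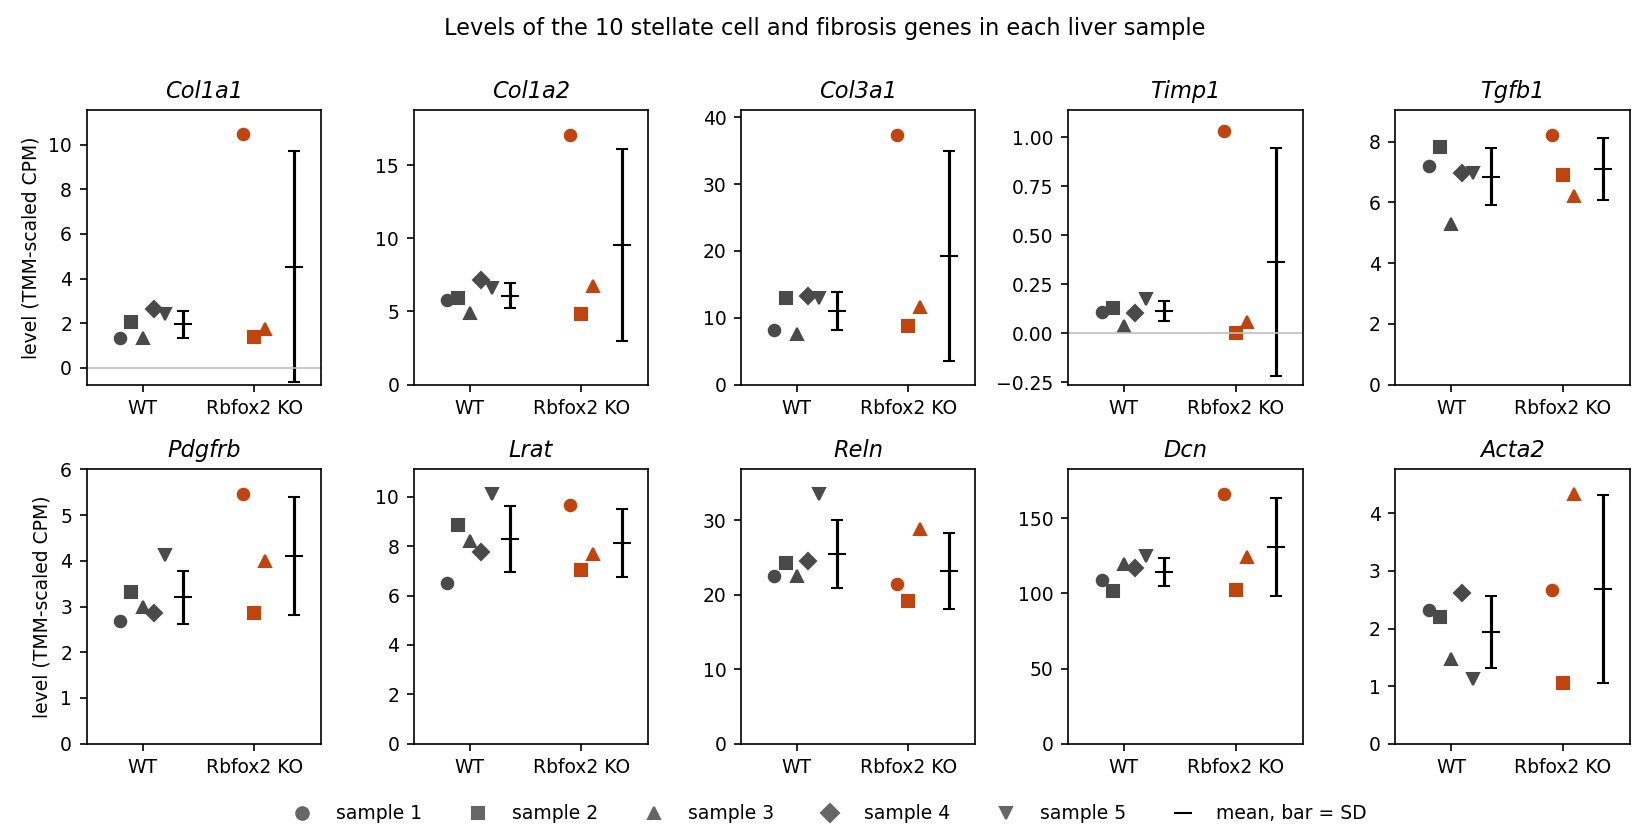
Level of each of the 10 members (TMM-scaled CPM, each panel with its own axis) in the 5 WT and 3 Rbfox2 KO livers, with marker shapes for the sample numbers and a bar for the mean and SD of each group. The circle of Rbfox2 KO 1 stands above all other samples for Col1a1, Col1a2, Col3a1 and Timp1, whereas the highest samples were WT 5 for Lrat and Reln and Rbfox2 KO 3 for Acta2.

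Fibrillar collagen transcripts were examined first. Type I collagen, the main protein of fibrotic scars, is assembled from the products of Col1a1 and Col1a2, and type III collagen from that of Col3a1. Col1a1 (ENSMUSG00000001506, chromosome 11 of GRCm38 from 94936224 to 94953042, plus strand) was at 1.33, 2.03, 1.33, 2.62 and 2.39 CPM in WT 1 to 5 and at 10.5, 1.38 and 1.73 CPM in Rbfox2 KO 1 to 3. Rbfox2 KO 1 was 4.01 times the highest of the other 7 samples, and the other Rbfox2 KO livers lay in the lower part of the WT range. The group means were 1.94 ± 0.595 CPM (SD, n = 5) and 4.54 ± 5.17 CPM (SD, n = 3), with a log2 fold change of 1.22 ± 0.64 (SE), an edgeR adjusted p of 1.0 and a two-sided exact permutation p of 0.286, where 56 splits allow no p below 0.0179. Without Rbfox2 KO 1 the log2 fold change was -0.32 ± 0.31 (SE).

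Col1a2 (ENSMUSG00000029661, chromosome 6 from 4504814 to 4541544, plus strand) was at 5.79, 5.91, 4.88, 7.12 and 6.62 CPM in WT and at 17.1, 4.83 and 6.74 CPM in Rbfox2 KO. Its log2 fold change was 0.66 ± 0.35 (SE) with all samples and -0.07 ± 0.19 without Rbfox2 KO 1. The pattern was that of its partner chain, with a smaller excess of 2.39 times the next sample. Col3a1 (ENSMUSG00000026043, chromosome 1 from 45311538 to 45349706, plus strand) was at 8.23, 12.9, 7.51, 13.2 and 13.0 CPM in WT and at 37.3, 8.80 and 11.7 CPM in Rbfox2 KO. Its log2 fold change was 0.81 ± 0.46 (SE), and -0.11 ± 0.25 without Rbfox2 KO 1, which was 2.83 times the next sample. Ranked by the ratio of Rbfox2 KO 1 to the highest other sample, Col1a1, Col3a1 and Col1a2 stood at places 38, 74 and 107 of the 14654 tested genes. For all 3 collagens the difference between group means was smaller than the SD of the Rbfox2 KO samples.

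The balance between collagen chains was compared within libraries, where scaling plays no part. The ratio of Col1a1 to Col1a2 counts was 0.229, 0.344, 0.273, 0.368 and 0.362 in WT and 0.616, 0.285 and 0.257 in Rbfox2 KO. Type I collagen contains more of the Col1a1 chain than of the Col1a2 chain, and Col1a2 had more counts than Col1a1 in all 8 livers. Per kb of exon Col1a2 was above Col1a1 in 7 of 8 livers, and in 8 of 8 with the length of the longest transcript. The ratio of Col3a1 to Col1a1 was 6.19, 6.35, 5.63, 5.04 and 5.43 in WT and 3.55, 6.40 and 6.73 in Rbfox2 KO, so that Rbfox2 KO 1 had the lowest share of Col3a1. Neither difference between genotypes passed the threshold (exact permutation p = 0.661 and 0.804, both 0.804 after adjustment over 4 ratios).

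Among the 19 collagen chains tested, 0 were called by edgeR and 0 had an unadjusted p under 0.05. Their median log2 fold change was 0.25 with all samples and -0.11 without Rbfox2 KO 1, which was the highest sample for 12 of 19 (63.2%, against 17.7% of all genes). The chains beside the members included Col5a2 (0.629 to 1.82 CPM in 7 samples, 3.29 CPM in Rbfox2 KO 1) and Col6a2 (1.99 to 2.90 CPM and 4.89 CPM). Col6a2, a chain of microfibrillar type VI collagen, was after Col3a1 the gene whose log2 CPM was most like that of Col1a1 across the 8 samples (r = 0.98, and 0.92 without Rbfox2 KO 1), followed by Cdca3, a cell cycle gene (r = 0.98 and 0.89). Col27a1 ran the other way, at 11.1 to 18.4 CPM in 7 samples and 6.11 CPM in Rbfox2 KO 1. The excess in Rbfox2 KO 1 was thus found in most but not all collagen genes.

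**Figure D2:**
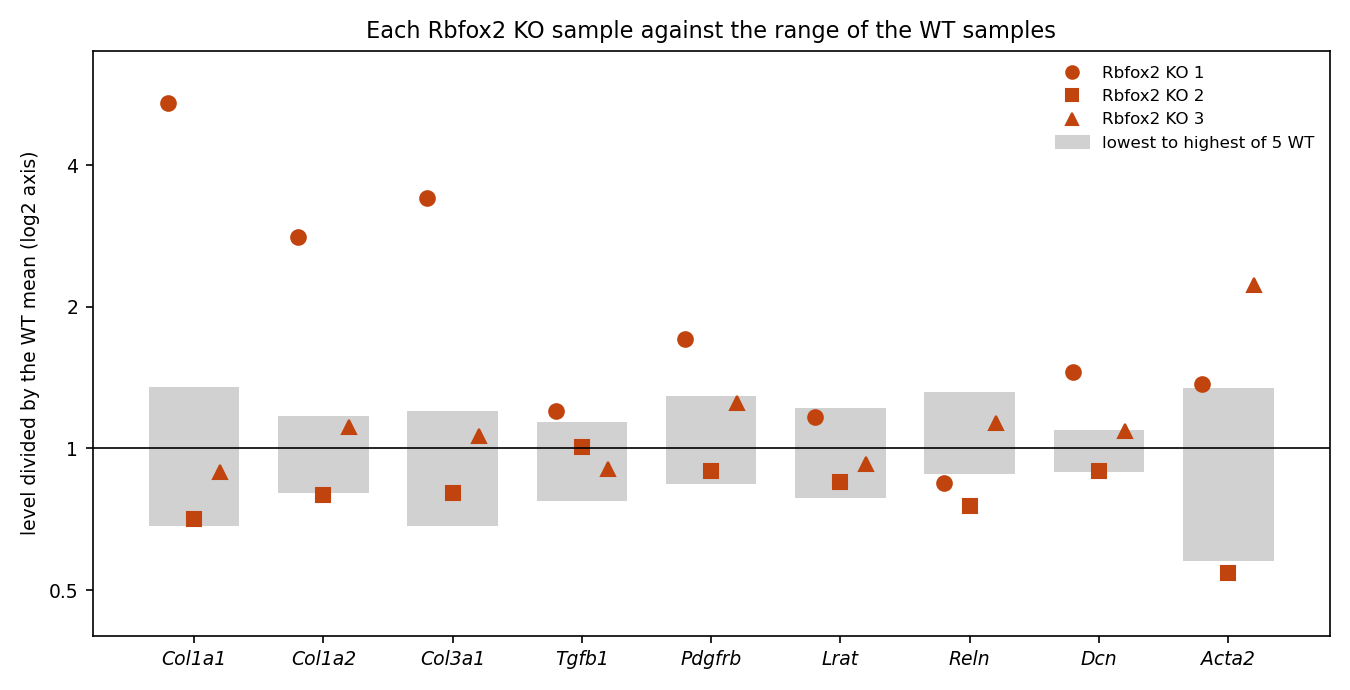
Level of the 9 tested members in each Rbfox2 KO liver divided by the WT mean (log2 axis), with the grey band running from the lowest to the highest of the 5 WT samples. Rbfox2 KO 1 reached 5.41 times the WT mean for Col1a1, 3.40 times for Col3a1 and 2.81 times for Col1a2, while the squares and triangles of the other Rbfox2 KO livers stayed in or near the band for these genes.

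Collagen maturation genes were compared next. Of the 20 tested genes for collagen processing and crosslinking, 0 were called by edgeR and 0 had an unadjusted p under 0.05. The median log2 fold change was 0.09 (0.00 without Rbfox2 KO 1). Rbfox2 KO 1 was the highest sample for 8 of 20, against 17.7% of all genes. It was more than 2 times the next sample for 0 of 20, against 1.11% of all genes. Pcolce, an enhancer of procollagen processing, was at 6.36 CPM in Rbfox2 KO 1 and 2.77 to 3.39 CPM in the others. Adamts14, a procollagen N-proteinase, had the smallest p of this group, with a log2 fold change of -0.74 ± 0.38 (SE, edgeR adjusted p = 1.0), at 0.524 to 1.0 CPM in WT and at 0.721, 0.275 and 0.307 CPM in Rbfox2 KO. Without Rbfox2 KO 1 it was -1.32.

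Timp1 and the balance of matrix breakdown were examined next. Timp1 (ENSMUSG00000001131, chromosome X from 20870166 to 20874735, plus strand) had 3, 4, 1, 3 and 6 counts in WT and 33, 0 and 2 counts in Rbfox2 KO, and did not pass the filter on low counts. A count of 0 in Rbfox2 KO 2 allows a level of up to 0.111 CPM, that of 3 counts, which lies within the WT range of 0.0351 to 0.177 CPM. Rbfox2 KO 1, at 1.03 CPM, was 5.84 times the highest other sample. In the fit without a filter its log2 fold change was 1.68, with an edgeR adjusted p of 0.901. The exact permutation p for the difference of means was 0.393, and without Rbfox2 KO 1 the Rbfox2 KO mean was below that of WT (exact p = 0.143).

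Of the 18 matrix proteases and inhibitors tested, 0 were called by edgeR. An unadjusted p under 0.05 was found for 2, both higher in Rbfox2 KO, against 4.74% of all genes in either direction. Of these 18, 17 had a log2 fold change above 0, against 50.2% of all genes, and 11 did without Rbfox2 KO 1. That sample was the highest for 11 of 18, against 17.7% of all genes. Mmp12, macrophage elastase, was at 14.0 CPM in Rbfox2 KO 1 and 0.354 to 0.923 CPM in the other 7 samples, a ratio of 15.2 to the next sample, and its log2 fold change of 2.85 became -0.81 without that sample. Mmp13, a rodent interstitial collagenase, was not tested, and its 2.29 CPM in Rbfox2 KO 1 compared with 0 to 0.196 CPM in the others. The sample that held the collagen excess thus also held the highest levels of the inhibitor Timp1 and of 2 proteases. Adamts1, a secreted protease that cleaves proteoglycans, was the exception, at 7.42 to 11.3 CPM in WT and at 11.9, 13.1 and 12 CPM in Rbfox2 KO. Its log2 fold change was 0.44 ± 0.13 (SE, edgeR adjusted p = 0.825) and was 0.46 without Rbfox2 KO 1.

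Dcn was the most abundant member. Decorin coats collagen fibrils and binds TGF-β. Dcn (ENSMUSG00000019929, chromosome 10 from 97479609 to 97518143, plus strand) was at 109, 102, 120, 117 and 125 CPM in WT and at 166, 102 and 124 CPM in Rbfox2 KO. Rbfox2 KO 1 was again the highest, at 1.33 times the next sample, and the other samples of both groups were alike. The log2 fold change was 0.20 ± 0.15 (SE), and -0.02 ± 0.12 without Rbfox2 KO 1. Dcn varied least between WT livers, with a coefficient of variation of 8.07%, against 30.6% for Col1a1 and 32.1% for Acta2. The 28 matrix proteoglycans and glycoproteins tested included 0 called by edgeR. At an unadjusted p under 0.05, 2 of 28 were higher, against 4.74% of all genes in either direction. The median log2 fold change of the 28 was 0.14, and -0.07 without Rbfox2 KO 1. Lumican (Lum) had the smallest unadjusted p among them (0.62 ± 0.23 SE, edgeR adjusted p = 0.943), followed by elastin (Eln, 0.83 ± 0.34 SE, edgeR adjusted p = 0.990), and the log2 fold changes were 0.24 and 0.23 without Rbfox2 KO 1.

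Signals and receptors came next. Tgfb1 (ENSMUSG00000002603, chromosome 7 from 25687002 to 25705077, plus strand) was at 7.20, 7.82, 5.30, 6.98 and 6.97 CPM in WT and at 8.21, 6.92 and 6.20 CPM in Rbfox2 KO. The samples of both groups were intermixed, with a log2 fold change of 0.05 ± 0.15 (SE), and -0.07 ± 0.17 without Rbfox2 KO 1. Rbfox2 KO 1, with the highest collagen levels, was thus only 1.05 times the next sample for the cytokine transcript. Tgfb1 transcript level does not report on active TGF-β, which is released from a latent complex. Pdgfrb (ENSMUSG00000024620) was at 2.69, 3.33, 2.98, 2.86 and 4.14 CPM in WT and at 5.45, 2.87 and 4.0 CPM in Rbfox2 KO. Its log2 fold change was 0.36 ± 0.22 (SE) and 0.10 ± 0.22 without Rbfox2 KO 1, with 1.32 times the next sample in that liver.

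By edgeR, 0 were called among 24 tested TGF-β ligands, receptors and activators, 19 tested TGF-β target genes and 7 PDGF ligands and receptors. An unadjusted p under 0.05 was found for 0, 3 and 2 of them, against 4.74% of all genes. Tgfbr1, a type I receptor, was at 9.85 to 15.7 CPM in WT and at 16.3, 15.6 and 19.2 CPM in Rbfox2 KO (log2 fold change 0.31 ± 0.15 SE, edgeR adjusted p = 1.0, and 0.34 without Rbfox2 KO 1). Ccn2, a matricellular protein induced by TGF-β, was at 5.17, 6.65, 6.42, 8.49 and 8.86 CPM in WT and at 17.1, 7.07 and 12.6 CPM in Rbfox2 KO, and its log2 fold change of 0.79 ± 0.26 (SE, edgeR adjusted p = 0.882) was 0.46 without Rbfox2 KO 1. Among the PDGF genes, Pdgfc was lower in every Rbfox2 KO sample, at 1.54, 1.81 and 1.43 CPM against 1.91 to 2.33 CPM (log2 fold change -0.43 ± 0.17 SE, edgeR adjusted p = 0.964). Pdgfd was at 0.873 to 1.23 CPM in WT and at 1.41, 1.22 and 1.51 CPM in Rbfox2 KO, with a log2 fold change of 0.49 ± 0.21 (SE, edgeR adjusted p = 1.0). Both values were similar without Rbfox2 KO 1, at -0.41 and 0.48.

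**Figure D3:**
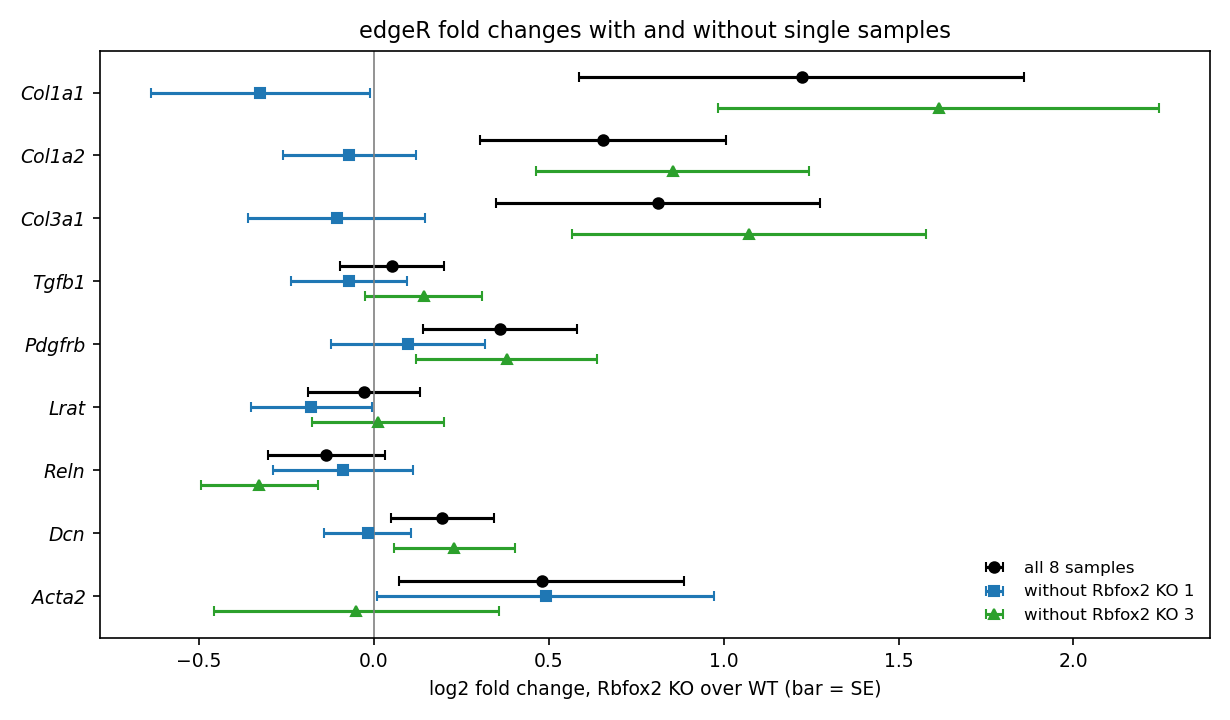
Log2 fold change of the 9 tested members (Rbfox2 KO over WT, bars show the SE) with all samples and without Rbfox2 KO 1 or Rbfox2 KO 3. The values of the 3 collagens lay between 0.66 and 1.22 with all samples and between -0.32 and -0.07 without Rbfox2 KO 1, and that of Acta2 fell from 0.48 to -0.05 without Rbfox2 KO 3.

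Lrat and Reln, markers of stored vitamin A and of resident stellate cells, did not share the large excess of the collagens in Rbfox2 KO 1. Lrat in that liver was below WT 5 alone. Scaled by library totals, Lrat was highest in Rbfox2 KO 1, at 12.4 CPM against 11.4 CPM in WT 5. For Dcn, also used as a marker of resident cells, Rbfox2 KO 1 was the highest sample. Lrat (ENSMUSG00000028003, chromosome 3 from 82892579 to 82903973, minus strand) was at 6.49, 8.85, 8.22, 7.79 and 10.1 CPM in WT and at 9.69, 7.03 and 7.69 CPM in Rbfox2 KO. The highest sample was WT 5 and the lowest WT 1, so that the WT group spanned all Rbfox2 KO samples. The log2 fold change was -0.03 ± 0.16 (SE), and -0.18 ± 0.17 without Rbfox2 KO 1. Reln (ENSMUSG00000042453, chromosome 5 from 21884454 to 22344702, minus strand) was at 22.5, 24.3, 22.5, 24.5 and 33.5 CPM in WT and at 21.4, 19.2 and 28.9 CPM in Rbfox2 KO. WT 5 stood above the other WT samples, and Rbfox2 KO 1 was below all of them, at 0.842 times the WT mean. The log2 fold change was -0.14 ± 0.17 (SE), and -0.09 ± 0.20 without Rbfox2 KO 1. Reln overlaps an antisense gene (Gm10475) in part of an exon, and whether reads were counted by strand was not stated.

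The ratio of Col1a1 to Lrat counts set the activated against the resident marker within each library. It was 0.205, 0.230, 0.162, 0.336 and 0.237 in WT and 1.08, 0.196 and 0.225 in Rbfox2 KO. The other 7 livers lay between 0.162 and 0.336 and Rbfox2 KO 1 lay above them. The difference between genotypes did not pass the threshold (exact permutation p = 0.393, adjusted p = 0.804). The 23 tested stellate cell markers had a median log2 fold change of 0.05 (-0.05 without Rbfox2 KO 1). Of these, 0 were called by edgeR and 1 was higher at an unadjusted p under 0.05, against 4.74% of all genes in either direction. Rbfox2 KO 1 was the highest sample for 10 of 23 (43.5%, against 17.7% of all genes). Within this list Adamtsl2, a matrix protein of the ADAMTS-like family, was at 7.02 CPM in Rbfox2 KO 1 and at 1.85 to 3.88 CPM in the others. Hand2, a transcription factor of stellate cells, was at 4.6 to 6.01 CPM in all 8 livers, with 5.2 CPM in Rbfox2 KO 1. Des (desmin), which skeletal muscle also expresses, was at 16.1, 19.6 and 14.1 CPM in WT 4, WT 5 and Rbfox2 KO 1, the samples with the most skeletal muscle transcripts, and at 3.14 to 5.35 CPM in the others.

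The vitamin A handling genes had a median log2 fold change of 0.00 over 18 tested (-0.04 without Rbfox2 KO 1). Among the 18, 0 were called by edgeR and 1 had an unadjusted p under 0.05, against 4.74% of all genes. Cyp26a1, a retinoic acid hydroxylase, was above the WT range in each Rbfox2 KO sample by a small margin, at 2.51, 2.63 and 2.71 CPM against 0.975 to 2.44 CPM (log2 fold change 0.49 ± 0.25 SE, edgeR adjusted p = 1.0, and 0.51 without Rbfox2 KO 1). Of the reelin receptors and adaptors, Vldlr was at 3.97 to 10.6 CPM in WT and at 4.73, 5.78 and 4.44 CPM in Rbfox2 KO (-0.50 ± 0.30 SE, edgeR adjusted p = 1.0, and -0.47 without Rbfox2 KO 1), and Lrp8 and Dab1 did not pass the filter.

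By the similarity of log2 CPM over the 8 samples, the genes most like Lrat were Zfyve16 (r = 0.97), Zmat3 (r = 0.96) and P2rx7 (r = 0.95). Those most like Reln were Sh3bp1 (r = 0.97), Chd8 (r = 0.96) and Brca2 (r = 0.96). None of these 6 is a stellate marker or a matrix gene of the lists used here, in contrast to the pair of collagens nearest to Col1a1, and each r is among the highest of 14654 genes over only 8 samples.

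Acta2 had a pattern of its own. Acta2 (ENSMUSG00000035783, chromosome 19 from 34241090 to 34255590, minus strand) was at 2.32, 2.20, 1.47, 2.62 and 1.12 CPM in WT and at 2.66, 1.06 and 4.33 CPM in Rbfox2 KO. Both the highest sample, Rbfox2 KO 3, and the lowest, Rbfox2 KO 2, were Rbfox2 KO, and Rbfox2 KO 1 was close to WT 4. The log2 fold change was 0.48 ± 0.41 (SE), 0.49 ± 0.48 without Rbfox2 KO 1 and -0.05 ± 0.41 without Rbfox2 KO 3. The member past a raw exact p of 0.05 under any omission was also Acta2, with an exact permutation p of 0.0476 without Rbfox2 KO 2, the smallest that 21 splits allow. A share of 0.352% of its 50-base sequences also occurs in Actg1 and actin pseudogenes.

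Vascular smooth muscle also expresses Acta2, and contractile genes were compared beside it. Myh11, smooth muscle myosin heavy chain, was at 1.14 to 2.45 CPM in WT and at 1.63, 1.14 and 4.25 CPM in Rbfox2 KO, with its highest level in the same liver as Acta2. The 16 tested contractile genes had a median log2 fold change of 0.17 (0.06 without Rbfox2 KO 1), with 0 called by edgeR. At an unadjusted edgeR p under 0.05, 3 of 16 were higher, against 4.74% of all genes in either direction. In 2 of 16 every Rbfox2 KO sample was above every WT sample, and the groups were apart in either direction for 3.71% of all genes. Myl9, a regulatory light chain of smooth muscle myosin, was at 0.946 to 1.49 CPM in WT and at 2.07, 1.49 and 2.46 CPM in Rbfox2 KO (0.76 ± 0.22 SE, edgeR adjusted p = 0.809). Srf, the transcription factor that binds CArG boxes, was at 7.77 to 10.1 CPM and at 11.4, 11.5 and 11.2 CPM (0.32 ± 0.11 SE, edgeR adjusted p = 0.882). These differences were of the same size without Rbfox2 KO 1 (0.73 and 0.31). Tagln (SM22) was at 2.78 to 4.58 CPM in WT and at 7.43, 4.48 and 5.53 CPM in Rbfox2 KO. The ratio of Acta2 to Tagln counts was 0.578, 0.535, 0.372, 0.573 and 0.404 in WT and 0.359, 0.237 and 0.783 in Rbfox2 KO (exact permutation p = 0.50, adjusted p = 0.804). The genes most like Acta2 over the 8 samples were Senp8 (r = 0.93), Gm38070 (r = 0.91) and Pank2 (r = 0.90), none of them in the list of contractile genes.

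Pairs of members were compared across the 8 livers to find which ones varied together. Of 45 pairs, 3 passed an adjusted p of 0.05 by Pearson's r of log2 CPM (exact permutation, Benjamini-Hochberg over 45), and these were the 3 pairs of fibrillar collagens. For Col1a1 and Col3a1 r was 0.99 (adjusted permutation p = 0.00223) and Spearman's rho was 0.98 (adjusted permutation p = 0.0179). For Col1a1 with Col1a2 r was 0.97 and rho 0.83, and for Col1a2 with Col3a1 r was 0.97 and rho 0.86. The adjusted permutation p was 0.0443 by r and 0.231 by rho for each of these pairs. Without the 2 samples farthest from the median of the first gene, r was 0.92, 0.88 and 0.83 for the 3 pairs. With 6 samples left a single pair could reach no adjusted permutation p below 0.0625, so that this omission gives values of r and no test. Without Rbfox2 KO 1 alone, r was 0.93, 0.81 and 0.82.

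The other members were not in a pair past the adjusted threshold. Timp1 correlated with Col1a1 with r of 0.93, and 0.66 without Rbfox2 KO 1. Pdgfrb and Dcn correlated with Col1a1 with r of 0.81 and 0.85, which became 0.45 and 0.32 without Rbfox2 KO 1. For Reln the change ran in the other direction, from r of -0.03 with all 8 samples to 0.64 without Rbfox2 KO 1. For Acta2 with Col1a1 r was 0.27, and 0.15 without that sample. Lrat correlated with Col1a1 with r of 0.64, and 0.64 without Rbfox2 KO 1.

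**Figure D4:**
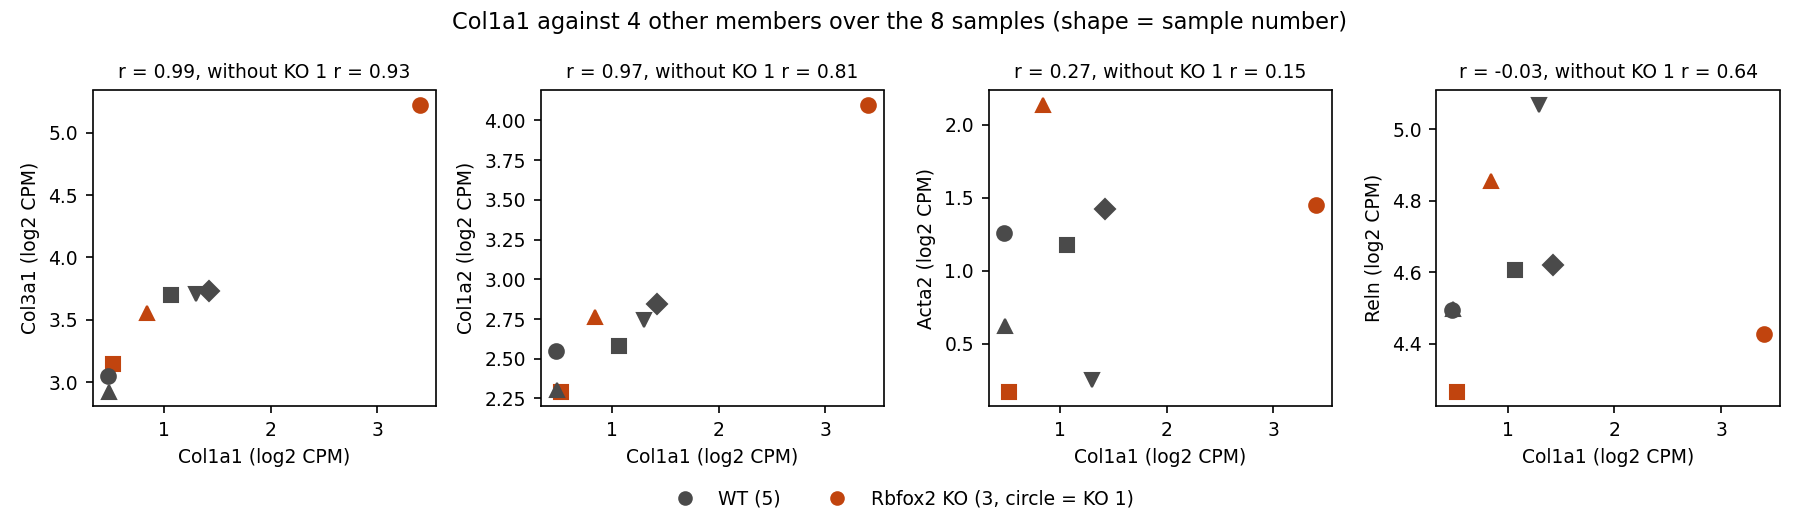
Log2 CPM of Col1a1 (horizontal axis) against Col3a1, Col1a2, Acta2 and Reln (vertical axes) in the 8 livers, with WT in grey, Rbfox2 KO in orange and marker shape for the sample number. Rbfox2 KO 1, the orange circle at the right, continues the trend of the other samples for Col3a1 (r = 0.99) and departs from it for Reln (r = -0.03, and 0.64 without it).

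Levels were also ranked among the members in WT liver after division by exon length. Dcn was highest, at 19.6 ± 1.58 CPM per kb (SD, n = 5), followed by Lrat (1.55 ± 0.249), Tgfb1 (1.36 ± 0.185), Col3a1 (1.12 ± 0.290) and Reln (1.07 ± 0.193). Acta2 (0.887 ± 0.284), Pdgfrb (0.584 ± 0.104), Col1a2 (0.488 ± 0.0689) and Col1a1 (0.296 ± 0.0907) came next, and Timp1 was last (0.125 ± 0.0578). Among neighbours in this order, the WT ranges were apart only for Dcn against Lrat and for Col1a1 against Timp1. With the length of the longest transcript in place of all exons, a measure chosen after seeing the data, Lrat fell below Tgfb1 and Pdgfrb below Col1a2 in all 8 samples. In these livers the resident stellate marker Lrat was thus above Col1a1 per kb, and the level of Timp1 was close to the detection limit.

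Other cell types that make matrix or surround stellate cells were measured for comparison. None of the 12 portal fibroblast markers tested was called by edgeR, and the 14 listed summed to 57.3 to 81.7 CPM in 7 samples and to 96.8 CPM in Rbfox2 KO 1. Mesothelial markers (8 genes) summed to 2.16 to 4.36 CPM in all 8 samples, and cholangiocyte markers (9 genes) to 27.0 to 38.6 CPM. Sinusoidal endothelial markers (10 genes) summed to 233 CPM in Rbfox2 KO 1 and 252 to 279 CPM in the others. Kupffer cell markers (10 genes) summed to 410 CPM in Rbfox2 KO 1, 396 CPM in Rbfox2 KO 3 and 293 to 339 CPM in the others. Among these, the scavenger receptor Marco was at 9.01 to 13.4 CPM in WT and at 22.2, 18.5 and 30.9 CPM in Rbfox2 KO (1.16 ± 0.18 SE, edgeR adjusted p = 0.138), with 1.21 without Rbfox2 KO 1. No marker of these lists was at 0 in all samples. DESeq2 called 2 of the 251 distinct genes of all the lists that were tested, Marco and the adipocyte gene Car3, against 59 of all 14654 tested genes. Whether any of these cell types contributed to the members' levels was not tested.

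**Figure D5:**
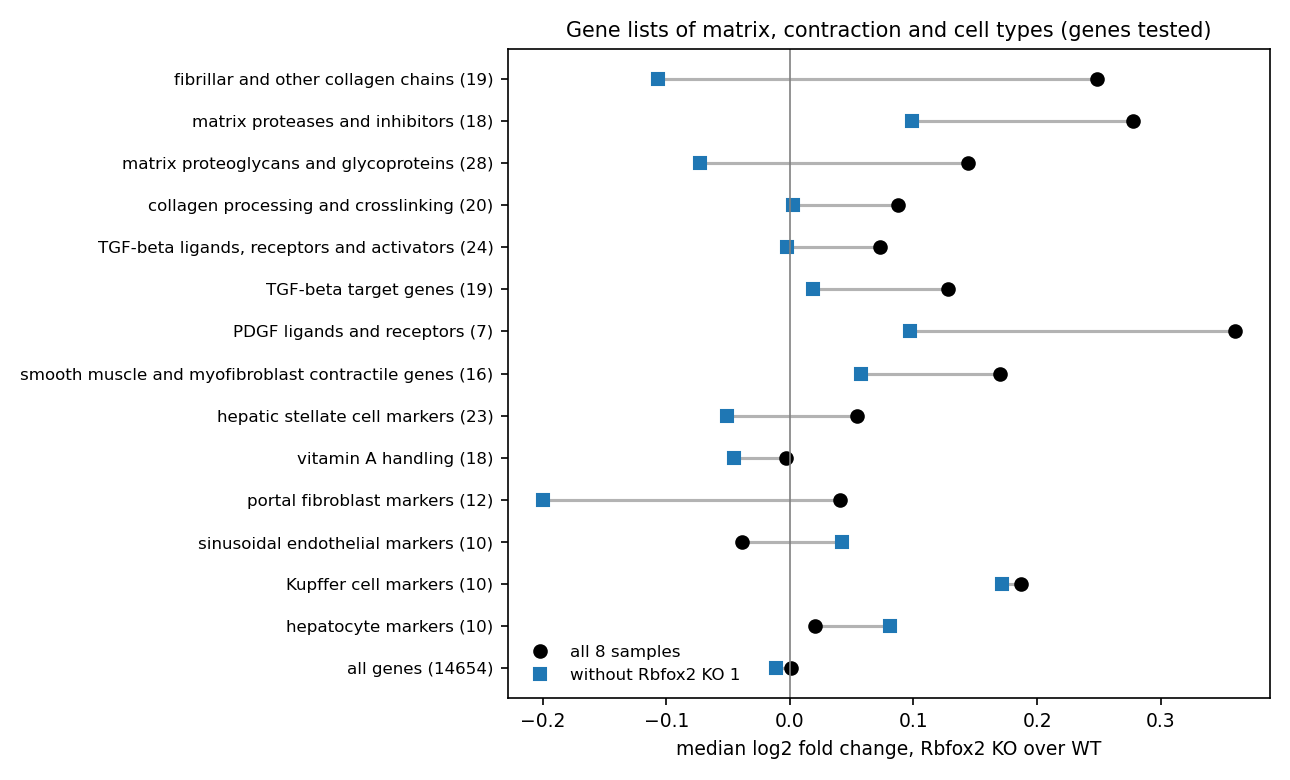
Median log2 fold change (Rbfox2 KO over WT) of the genes of each list with all 8 samples (circles) and without Rbfox2 KO 1 (squares), with the number of genes tested in brackets. The collagen chains moved from 0.25 to -0.11, the stellate cell markers from 0.05 to -0.05, and the Kupffer cell markers stayed at 0.19 and 0.17.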

How the data were processed

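Liver RNA of 5 WT and 3 Rbfox2 KO mice was measured by poly(A)-selected RNA-seq. The authors aligned reads with TopHat2 2.0.11 to GRCm38 and deposited one table of featureCounts gene counts, whole numbers without normalization. The strand setting of this step and its treatment of multimapped reads are not given in the sources used here. Groups and sample numbers follow the labels, and p-values measure the spread between these samples. The table held 46078 genes, with 0 sample columns left without a sample, and 45143 were given a symbol from GENCODE M21, which also gave coordinates and exon lengths.

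Genes were filtered with filterByExpr, which left 14654, scaled by TMM and tested for genotype alone by edgeR 4.0.16 (quasi-likelihood, robust, R 4.3.3). P-values were adjusted over all tested genes by Benjamini-Hochberg with a threshold of 0.05. The standard error was the size of the log2 fold change divided by the square root of F. Means of CPM and log2 ratios were compared by two-sided exact permutation over 56 splits. Correlations used log2 CPM and exact permutation of pairings. Alternatives were DESeq2 1.42.0, limma-voom 3.58.1, other scalings and filters, a replicate block and leaving out each sample. The procedure was tested on simulated data. A floor of 3 counts covers counting error only.

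The 10 members and the 21 lists beside them were chosen with earlier results of these data known. Named genes were the members, Rbfox2, the 2 tested genes of each list with the smallest unadjusted p where a result turned on them, and the 3 genes most like Col1a1, Acta2, Lrat and Reln. Col5a2, Col27a1, Mmp13, Hand2, Des, Myh11 and the genes of the 2 lists in the closing section were named after their values were seen. Promoters were read from RefSeq (GRCm38.p6). One gene that this rule names is not reported here.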

Additional observations from a re-analysis of the deposited data

Results flagged for a closer look

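Among the values tested for a sample far from the others in its group, the level of Reln was picked out. WT 5 had 33.5 CPM against 22.5 to 24.5 CPM in the other WT livers, a gap to the nearest sample of 0.814 of the group's whole range, above the critical value of 0.71 for 5 samples. Over the 14 values tested in the WT group, chance alone picks out 0.7. WT 5 was also the liver with the most skeletal muscle transcripts, at 416 CPM, and its part in the Reln level was not tested.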

How the results depend on the processing

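Members called stayed at 0 under all 16 alternatives. Genes called overall were 0 except for 59 with DESeq2 and 6 with no filter on low counts, and over the lists 0 except for 2 and 1. With 1 sample omitted at a time, the log2 fold change ran from -0.32 to 1.65 for Col1a1, -0.071 to 0.97 for Col1a2, -0.11 to 1.15 for Col3a1, -0.071 to 0.14 for Tgfb1, -0.017 to 0.34 for Dcn, -0.18 to 0.065 for Lrat and -0.050 to 0.85 for Acta2, and Pdgfrb (0.10 to 0.56) and Reln (-0.33 to -0.016) kept their sign. The same omissions moved the difference of means (Rbfox2 KO minus WT, CPM) from -0.388 to 4.18 for Col1a1, -0.281 to 5.83 for Col1a2, -0.744 to 13.5 for Col3a1, -0.0835 to 0.434 for Timp1, -0.294 to 0.711 for Tgfb1, -0.931 to 0.396 for Lrat, -0.959 to 30.9 for Dcn and -0.0846 to 1.55 for Acta2. The log2 ratio difference ran from -0.20 to 0.43 for Col1a1/Col1a2, -0.26 to 0.20 for Col3a1/Col1a1, -0.73 to 0.13 for Acta2/Tagln and -0.12 to 1.12 for Col1a1/Lrat. The lowest values of the collagens, Timp1 and Dcn came without Rbfox2 KO 1, and that of Acta2 without Rbfox2 KO 3. Scaling by library totals put the median over all genes at 0.11 and gave 0.10 for Lrat, with a difference of means of 0.624 CPM, and made Rbfox2 KO 1 the highest sample for 7 of 9 members. Without the 3 libraries with the most skeletal muscle transcripts, an alternative chosen after seeing the data, the log2 fold change was -0.00755 for Col1a1, -0.047 for Tgfb1 and 0.060 for Reln. The cause of these changes was not tested.

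No pairing of samples by equal number was seen. The deviations of same-numbered samples correlated at 0.163, 0.0484 and 0.170, and not every sample correlated best with its own number. So few values cannot exclude a pairing. The fit with the replicate block called 0 genes by edgeR (739 at an unadjusted p under 0.05, against 694 without the block) and gave log2 fold changes of 0.97 for Col1a1, 0.28 for Acta2 and 0.049 for Lrat, with the sign turned for Lrat alone among the members. Counts limit Timp1, with 0 to 6 counts in 7 of 8 samples. A floor of 3 counts equals 0.0793 to 0.121 CPM by library total, before TMM scaling.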

Other observations

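Beyond matrix genes, cell division genes were looked at in the liver with the highest collagen transcripts, in a list chosen after their values were seen. Of 42 tested genes of this list, Rbfox2 KO 1 was the highest sample for 40, against 17.7% of all genes. It was more than 2 times the next sample for 36, against 1.11% of all genes. Since the list was chosen from these values, its counts describe this sample and are not a test. Cyclin B1 (Ccnb1) was at 5.71 CPM in Rbfox2 KO 1 and 0.105 to 0.419 CPM in the other 7 samples, and Cdk1, the kinase it activates, was at 6.11 CPM and 0.559 to 1.21 CPM. Pcna and Tyms did not share this, at 23.1 and 6.05 CPM in Rbfox2 KO 1 and up to 23.7 and 7.09 CPM in the others. By edgeR 0 of the 42 were called. Their log2 fold changes had a median of 0.96, which was -0.55 without Rbfox2 KO 1.

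A second list chosen in the same way held genes of lipid-laden and scar-associated macrophages. Rbfox2 KO 1 was the highest sample for 16 of 17 tested, and more than 2 times the next for 7, against 17.7% and 1.11% of all genes. These counts too are not a test. Trem2, a lipid receptor of macrophages, was at 4.33 CPM against 0.246 to 0.629 CPM, and Gpnmb, a transmembrane glycoprotein of such cells, was at 6.24 CPM against 0.0393 to 0.502 CPM. Lgals3 (galectin-3) was at 16.7 CPM against 3.77 to 5.98 CPM, and Spp1 was the exception, at 26.2 CPM against 17.9 to 29.3 CPM. Both lists describe 1 liver, which also held pancreatic, muscle and red blood cell transcripts, and their part in these levels was not tested.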
